A study of Saccharomyces cerevisiae with 2 samples.

Results

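The RNAs described are NME1, RPR1, SCR1 and TLC1, the RNA subunits of RNase MRP, RNase P, the signal recognition particle (SRP) and telomerase. They were taken by name, not by value, and are 4 of the 5758 features listed in the read counts of a CRAC experiment on Sni445. CRAC cross-links RNA to bound protein by UV irradiation of live cells, isolates the tagged protein under stringent conditions, and reads the attached RNA fragments as sequenced cDNA. The data hold 1 library of the Sni445-HTP strain, which is BY4741 with a C-terminal tag of His6, a TEV site and protein A on Sni445 at its own chromosomal locus, and 1 library of an untagged wild-type strain as control. Both cultures were grown in YNB medium with glucose and without tryptophan to an optical density of 0.6 and were irradiated for 100 seconds. Both went through the same purification, and both cDNAs were amplified in 16 PCR cycles.

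All 4 RNAs are stable and work in particles that contain neither the box C/D nor the box H/ACA core proteins. RNase P removes the 5′ leader of pre-tRNAs, and RNase MRP, which shares most of its protein subunits with RNase P, cleaves the pre-rRNA in the internal transcribed spacer 1 (ITS1). SRP carries ribosomes that synthesise secretory proteins to the endoplasmic reticulum, with SCR1 as its scaffold. TLC1 holds the template from which telomerase copies the telomeric repeats, and it is scarce in yeast cells. RPR1 and SCR1 are made by RNA polymerase III, NME1 and TLC1 by RNA polymerase II.

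The identity of each name was checked in the R64 genome, where the annotated kind of gene was the one given above for all 4. NME1 lies at chrXIV:585587-585926 on the plus strand (340 nt) and RPR1 at chrV:117667-118035 on the minus strand (369 nt). SCR1 lies at chrV:441987-442508 on the plus strand (522 nt) and TLC1 at chrII:307587-308887 on the plus strand (1301 nt). No other annotated gene overlaps any of them. A snoRNA gene lies next to NME1, with SNR66 163 nt downstream on the same strand, and next to TLC1, with SNR161 241 nt upstream on the opposite strand. The authors' genome, EF2.59, is another build, so these places and the sequences below describe R64. The sequences are written 5′ to 3′ in the sense of the RNA, as DNA, and are shown because reads that match several sites were placed at random, so that only an RNA with words of its own keeps its reads. The word in capitals is given with up to 100 nt on each side. Capitals in NME1 (bases 137 to 340) and RPR1 (bases 161 to 369) mark the longest word they share, of 9 letters. Capitals in SCR1 (bases 163 to 370) mark the longest word it shares with RPR1, of 8 letters. Capitals in TLC1, of which bases 448 to 506 are shown, mark its longest run of only A and C, 19 letters from base 468 to base 486, where the template lies.
NME1: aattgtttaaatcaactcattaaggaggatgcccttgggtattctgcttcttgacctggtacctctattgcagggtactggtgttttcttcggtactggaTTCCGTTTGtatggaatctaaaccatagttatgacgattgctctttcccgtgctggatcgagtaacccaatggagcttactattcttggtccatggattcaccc
RPR1: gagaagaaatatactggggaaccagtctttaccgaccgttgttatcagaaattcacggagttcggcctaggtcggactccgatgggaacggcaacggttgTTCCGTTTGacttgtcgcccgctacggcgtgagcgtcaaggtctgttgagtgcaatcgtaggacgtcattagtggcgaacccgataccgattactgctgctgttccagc
SCR1: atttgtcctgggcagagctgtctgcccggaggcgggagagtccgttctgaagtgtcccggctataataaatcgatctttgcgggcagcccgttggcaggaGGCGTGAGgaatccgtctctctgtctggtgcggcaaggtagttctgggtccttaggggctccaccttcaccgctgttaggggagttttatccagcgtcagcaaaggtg
TLC1: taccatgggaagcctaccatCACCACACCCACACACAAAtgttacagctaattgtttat

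These RNAs can be told apart from each other and from the rest of the genome by short reads. Between any pair of them, the longest shared word had 7 to 9 letters. No word of 20 letters from NME1, RPR1 or SCR1 was found anywhere else in R64 on either strand. In TLC1, 3 of 1282 words of 20 letters were found elsewhere, and none of 25 letters. The A and C run of TLC1 was longer than the longest in the other RNAs, which had 8 letters in NME1, 7 in RPR1 and 6 in SCR1.

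Of the 4 RNAs, SCR1 was the one with the most reads in both libraries. It had 1613 sense reads with Sni445-HTP and 73324 in the untagged control. NME1 had 188 reads with Sni445-HTP against 1046 in the control, and RPR1 had 159 with Sni445-HTP against 1085 in the control. TLC1 had 10 reads with Sni445-HTP against 1455 in the control. No antisense read fell on any of them in either library. NME1 stands among the snoRNAs in the counts and the other RNAs in a section of 6 non-coding RNAs, of which RPR1, SCR1 and TLC1 held every sense read, 1782 with Sni445-HTP against 75864 in the control.

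The library of Sni445-HTP had 21867727 mapped reads and that of the control 12654405, and since a read is counted on each feature it overlaps, they gave 26984818 sense counts for Sni445-HTP and 22960662 for the control. A share is the part of these sense counts, and its interval is the exact Clopper-Pearson interval at 95%. All intervals cover counting error only, because PCR copies are not independent molecules and 1 library per strain gives no replicate check and no test. Together the 4 RNAs made up 0.00730% of the Sni445-HTP counts (0.00698 to 0.00763) and 0.335% of the control counts (0.333 to 0.337). RNA levels in the cells were not measured in these data, so the amount of an RNA and its recovery in the purification cannot be told apart.

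**Figure D1:**
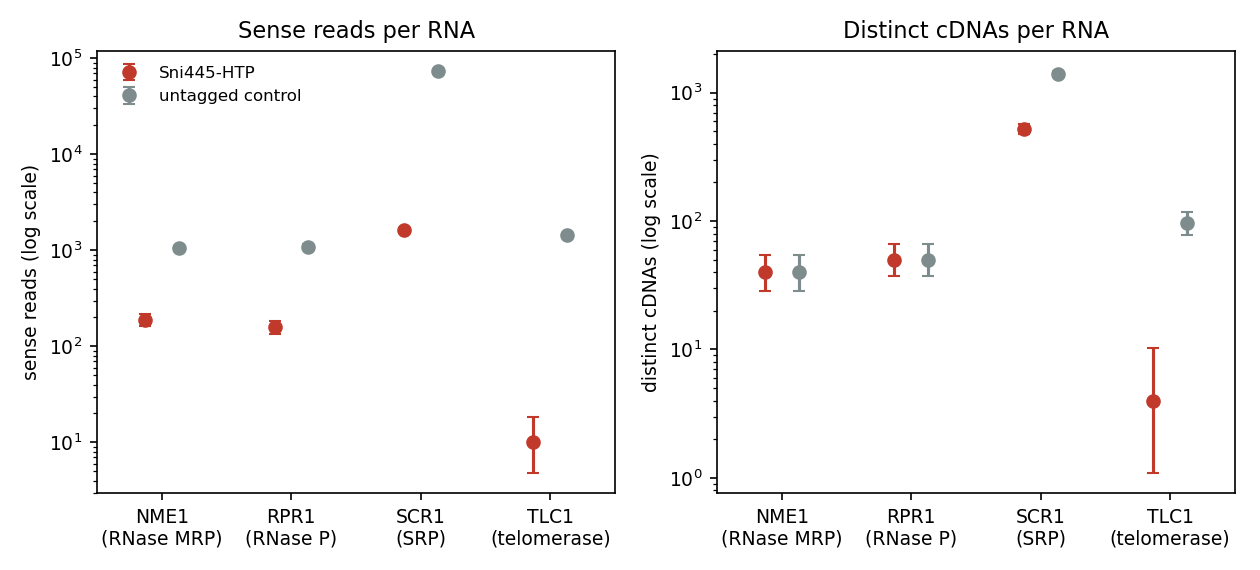
Sense reads (left) and distinct cDNAs (right) on each RNA, on log scales, with Sni445-HTP in red and the untagged control in grey; bars are exact Poisson 95% intervals for counting error. Reads are fewer with Sni445-HTP for all 4 RNAs, while NME1 has 40 cDNAs and RPR1 50 in each library and TLC1 has 4 against 96.

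As a share of the library, each RNA was lower with Sni445-HTP than in the control. The share of SCR1 was 0.00598% with Sni445-HTP (0.00569 to 0.00628) against 0.319% in the control (0.317 to 0.322). This is a ratio of 0.0187 (95% interval 0.0178 to 0.0197). NME1 had a share of 0.000697% with Sni445-HTP against 0.00456% in the control, a ratio of 0.153 (0.13 to 0.179). For RPR1 the shares were 0.000589% with Sni445-HTP against 0.00473% in the control, and the ratio was 0.125 (0.105 to 0.147). For TLC1 they were 3.71e-05% with Sni445-HTP against 0.00634% in the control, and the ratio was 0.00585 (0.00280 to 0.0108). By the rule of at least 100 control reads and a share with Sni445-HTP of at most 0.25 times that of the control, 4 of 4 were called lower. So were 895 of the 911 features with that many control reads, 98.2%, or 15.5% of all features listed, so the count of 4 does not set these RNAs apart. All 4 were also lower with a ratio of at most 0.5, as were 99.6% of the features with enough reads, and with a minimum of 1000 control reads, as were 98.6%. By the opposite rule, of at least 100 reads and a share 4 times higher with Sni445-HTP, 0 of 4 were called, against 21.2% of the 179 features with enough reads and 0.66% of all features listed. With a minimum of 10 reads it was again 0 of 4, against 4.93% of all features.

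What differed among them was the size of the ratio. NME1 stood 8.17 times higher relative to SCR1 with Sni445-HTP than in the control (6.90 to 9.63), and RPR1 6.66 times (5.56 to 7.94). These comparisons of one RNA with another need no library total and no scaling. SCR1 in turn was 3.20 times higher relative to TLC1 with Sni445-HTP than in the control (1.73 to 6.70). NME1 and RPR1 could not be told apart, at 1.23 (0.971 to 1.55). The order of the ratios in reads was therefore NME1 and RPR1, then SCR1, then TLC1. Among the reads of these RNAs alone, SCR1 made up 81.9% with Sni445-HTP (80.1 to 83.6) against 95.3% in the control (95.2 to 95.5). NME1 made up 9.54% with Sni445-HTP (8.28 to 10.9) against 1.36% in the control (1.28 to 1.44), RPR1 8.07% with Sni445-HTP against 1.41% in the control, and TLC1 0.508% with Sni445-HTP against 1.89% in the control.

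Each read can be a PCR copy, and the deposited counts also give the number of distinct cDNAs behind the reads. NME1 had 40 cDNAs with Sni445-HTP (exact Poisson interval 28.6 to 54.5) against 40 in the control. RPR1 had 50 with Sni445-HTP (37.1 to 65.9) against 50 in the control. SCR1 had 522 with Sni445-HTP (478 to 569) against 1404 in the control (1332 to 1479). TLC1 had 4 with Sni445-HTP (1.09 to 10.2) against 96 in the control (77.8 to 117). Numbers of cDNAs were thus equal between the libraries for the RNAs of both endonucleases, and fewer with Sni445-HTP for those of SRP and telomerase.

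The Sni445-HTP library had fewer cDNAs in all, 322543 against 804158 for the control, so as shares of all cDNAs the order was the same and the levels differed from those in reads. The share of NME1 was 0.0124% with Sni445-HTP against 0.00497% in the control, a ratio of 2.49 (1.57 to 3.97). RPR1 had 0.0155% with Sni445-HTP against 0.00622% in the control, also a ratio of 2.49 (1.65 to 3.77). SCR1 had 0.162% with Sni445-HTP (0.148 to 0.176) against 0.175% in the control (0.166 to 0.184), a ratio of 0.927 (0.837 to 1.03), so a difference was not detectable at this depth. TLC1 had 0.00124% with Sni445-HTP (0.000338 to 0.00318) against 0.0119% in the control (0.00967 to 0.0146), a ratio of 0.104 (0.0277 to 0.275). In cDNAs, NME1 and RPR1 were each 2.69 times higher relative to SCR1 with Sni445-HTP than in the control (1.67 to 4.33 for NME1 and 1.76 to 4.12 for RPR1). Relative to TLC1, SCR1 was 8.92 times higher (3.35 to 33.6).

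Of the 4, only TLC1 passed the rule for lower in cDNAs, where at least 10 control cDNAs and a ratio of at most 0.25 were asked. That rule called 33.4% of the 1594 features with enough control cDNAs, or 9.26% of all features listed. None passed the rule for higher, which called 21.7% of 978 features with enough cDNAs, or 3.68% of all listed. Over the 1834 features with at least 10 cDNAs in the libraries together, the median ratio was 0.499. NME1 and RPR1 stood above 1532 of these features, SCR1 above 1265 and TLC1 above 203.

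The reads behind each cDNA differed strongly between the libraries. With Sni445-HTP there were 4.70 reads per cDNA on NME1, 3.18 on RPR1, 3.1 on SCR1 and 2.50 on TLC1. In the control there were 26.2 on NME1, 21.7 on RPR1, 52.2 on SCR1 and 15.2 on TLC1. Over features with at least 10 cDNAs and no antisense reads, the median was 2.83 with Sni445-HTP against 33.0 in the control. The fewer reads per cDNA with Sni445-HTP were thus not particular to these RNAs. In the control SCR1 was above that median and the other 3 RNAs below it. Of the 4, SCR1 had the most reads per cDNA in the control. Its ratio in reads was lower than those of NME1 and RPR1, and the part of PCR copies in that ratio was not tested. The snoRNA snR4 went the other way, with more reads per cDNA with Sni445-HTP. It had 12785901 reads on 19263 cDNAs with Sni445-HTP against 239984 on 1423 in the control.

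The direction of the ratio in reads depends on what it is divided by. With Sni445-HTP, most counts fell on the box C/D snoRNAs snR4 and snR45, the acetylation guides, and on the intergenic features INT_0_2879 and INT_0_9029. Without these 4 features in the total, the ratio was 5.09 for NME1 (4.34 to 5.95) and 4.15 for RPR1 (3.49 to 4.91), above 1. It was 0.623 for SCR1 (0.593 to 0.655) and 0.195 for TLC1 (0.0932 to 0.359), below 1. Median-ratio scaling sets the median feature equal in both libraries, over the 1044 features with reads in both. It gave 6.20 for NME1, 5.06 for RPR1, 0.759 for SCR1 and 0.237 for TLC1. TMM scaling gave 5.35 for NME1, 4.37 for RPR1, 0.655 for SCR1 and 0.205 for TLC1. Under both scalings NME1 and RPR1 passed the rule for higher, which then called 34.1% (median-ratio) and 32.4% (TMM) of the features with enough reads, or 1.06% and 1.01% of all. TLC1 passed that for lower, which called 39.4% and 42% of the features with enough reads, or 6.23% and 6.65% of all. The interval of RPR1 under TMM scaling, 3.67 to 5.16, included the cutoff of 4. Those of NME1 under both scalings and of RPR1 under median-ratio scaling lay above it. For TLC1, with 10 reads, the intervals were 0.114 to 0.438 (median-ratio) and 0.0980 to 0.378 (TMM), and both included the cutoff of 0.25. Relative to the median of features with reads in both libraries, therefore, the RNAs of RNase MRP and RNase P had more reads with Sni445-HTP. Those of SRP and telomerase had fewer.

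**Figure D2:**
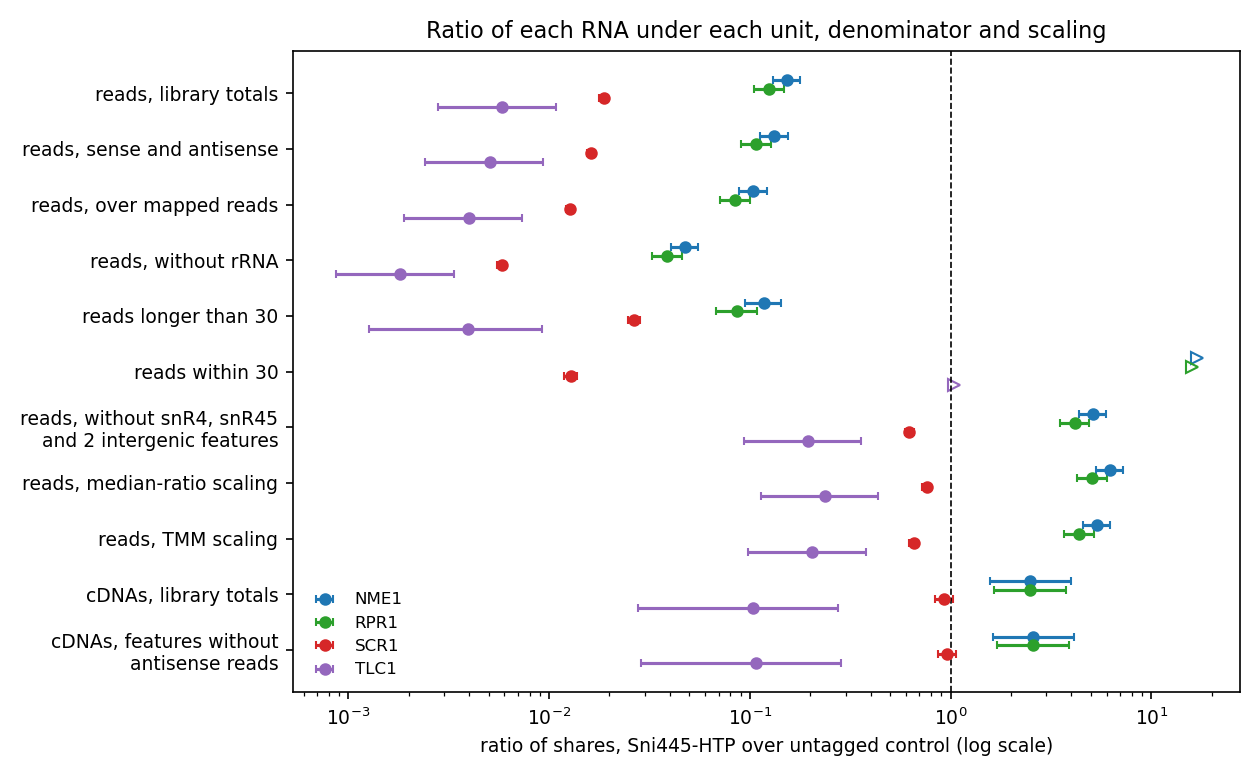
Ratio of the share of each RNA, Sni445-HTP over untagged control, on a log scale, under each unit, denominator and scaling. Points are ratios with exact conditional 95% intervals, and the dashed line is 1. Open triangles had 0 control counts and show the ratio with a floor of 3, which is not a 95% limit. NME1 and RPR1 cross the line between settings, from 0.153 and 0.125 in reads to 2.49 in cDNAs, while TLC1 stays lowest except among reads within the limit of 30.

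Per length, SCR1 was the most abundant of these RNAs in both libraries and TLC1 the least. With Sni445-HTP, there were 3090 reads per kb on SCR1, 553 on NME1, 431 on RPR1 and 7.69 on TLC1. In the control, there were 140467 reads per kb on SCR1, 3076 on NME1, 2940 on RPR1 and 1118 on TLC1. NME1 and RPR1 were neighbours in this order in both libraries. In cDNAs per kb, SCR1 had 1000 with Sni445-HTP against 2690 in the control, and TLC1 had 3.07 with Sni445-HTP against 73.8 in the control. NME1 had 118 cDNAs per kb and RPR1 136 in each library. Per kb, SCR1 had 402 times the reads of TLC1 with Sni445-HTP and 126 times in the control.

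These levels set the scale for the RNAs that the purification enriches. Per kb, snR4 had 22246 times the reads of SCR1 with Sni445-HTP and 9.19 times in the control. For snR45 the values were 16314 times with Sni445-HTP and 3.59 times in the control. In cDNAs per kb, snR4 had 104 times the level of SCR1 with Sni445-HTP and 2.84 times in the control, and snR45 had 163 times with Sni445-HTP and 1.27 times in the control.

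Read length also differed between the libraries. Counts were made under a limit of 30 on read length and under a limit of 1000, and the first are contained in the second. With Sni445-HTP, 81 of the 188 reads on NME1 were within the limit of 30, 43.1% (35.9 to 50.5), and 77 of 159 on RPR1, 48.4% (40.4 to 56.5). In the control, 0 of the 1046 reads on NME1 (upper limit 0.352%) and 0 of the 1085 on RPR1 (upper limit 0.339%) were within it. On TLC1, 5 of 10 reads were within the limit with Sni445-HTP (50%, 18.7 to 81.3) and 0 of 1455 in the control (upper limit 0.253%). SCR1 differed from the others in having short reads in both libraries, 665 of 1613 with Sni445-HTP, 41.2% (38.8 to 43.7), and 32371 of 73324 in the control, 44.1% (43.8 to 44.5).

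In cDNAs the same contrast held for SCR1 also. With Sni445-HTP, 18 of 40 cDNAs on NME1 were within the limit, 45.0% (29.3 to 61.5), as were 21 of 50 on RPR1, 42.0% (28.2 to 56.8), and 2 of 4 on TLC1. In the control none of the 186 cDNAs on these 3 RNAs was, which allows up to 1.61%. For SCR1, 179 of 522 cDNAs were within the limit with Sni445-HTP, 34.3% (30.2 to 38.5), and 219 of 1404 in the control, 15.6% (13.7 to 17.6). Over all features, 37.5% of the cDNAs were within the limit with Sni445-HTP against 18.9% in the control, so short cDNAs were more frequent with Sni445-HTP in general. A lack of short reads was not particular to these RNAs. In the control, 88 of 324 features with 40 to 100 cDNAs, 27.2%, had no read within the limit, NME1, RPR1 and TLC1 among them. So did 3 of 18 such snoRNAs and snRNAs, counted without NME1. With Sni445-HTP, 3 of 89 such features had none, 3.37%.

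**Figure D3:**
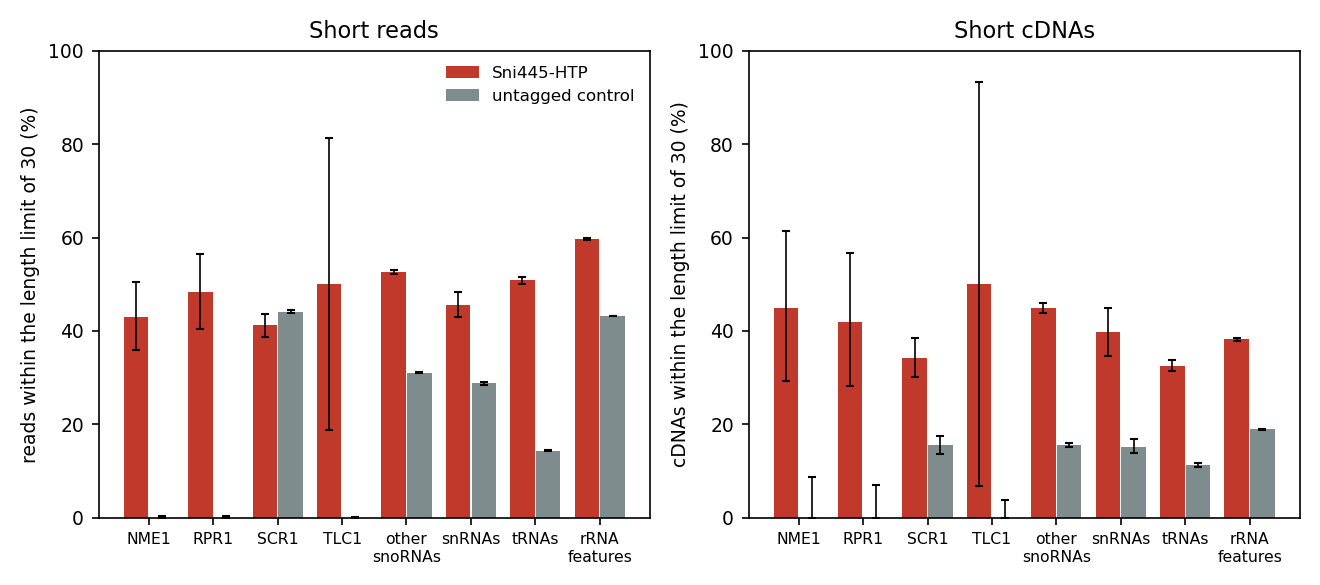
Percent of reads (left) and of distinct cDNAs (right) within the read length limit of 30 for each RNA and for other RNA families, with Sni445-HTP in red and the untagged control in grey; bars start at 0 and whiskers are exact Clopper-Pearson 95% intervals. NME1, RPR1 and TLC1 have none in the control, whereas SCR1 has 44.1% of its reads and 15.6% of its cDNAs there.

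Because of these zeros, the comparison changes with the limit. Among reads within 30, NME1 and RPR1 each had 0 control reads, set to a floor of 3 counts in the library. At this floor the ratio of shares was 16.8 for NME1 and 16.0 for RPR1. The lower limits were 13.4 for NME1 and 12.7 for RPR1, so both shares were higher with Sni445-HTP. For TLC1, 5 reads against 0 gave 1.04 at the floor, with a lower limit of 0.571, so a higher share was not shown. SCR1 was lower there, with a ratio of 0.0128 (0.0118 to 0.0138), and thus the lowest of the 4. It was the only one called lower, by a rule that called 96.6% of the features with enough control reads, or 8.35% of all. None was called higher, since each had fewer than 100 reads within the limit or a lower share, where 34.2% of the features with enough reads, or 0.712% of all, were. Of the 219 control cDNAs of SCR1 within the limit, each had 148 reads on average, against 3.72 for the 179 with Sni445-HTP, and the ratio of SCR1 in cDNAs within the limit was 1.03 (0.837 to 1.25). Among reads longer than 30, the ratio was 0.117 for NME1, 0.0865 for RPR1, 0.0265 for SCR1 and 0.00393 for TLC1.

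The other stable RNAs of the libraries place these values. The spliceosomal snRNAs, also RNAs of stable particles, had ratios on both sides of 1 as well. U2 (LSR1) had 163 cDNAs with Sni445-HTP against 1713 in the control, a ratio of 0.237 (0.201 to 0.279), and U1 (SNR19) had 36 with Sni445-HTP against 370 in the control, a ratio of 0.243 (0.167 to 0.342). U4 (SNR14) had 36 cDNAs with Sni445-HTP against 63 in the control, a ratio of 1.42 (0.919 to 2.18). The long form of U5 (SNR7-L) had 21 with Sni445-HTP against 35 in the control, a ratio of 1.5 (0.827 to 2.64), and the short form (SNR7-S) 18 with Sni445-HTP against 35 in the control, a ratio of 1.28 (0.684 to 2.33). The intervals of U4 and of both U5 forms included 1. Both U5 forms come from the same gene and can share reads. U6 (SNR6) had 93 cDNAs with Sni445-HTP against 0 in the control, a ratio of 77.3 at the floor of 3 counts, with a lower limit of 61.6. In cDNAs the ratios of NME1 and RPR1 were above those of 5 of these 6 features, that of SCR1 above 2 and that of TLC1 above none. TLC1 could not be told apart from U2 or U1, at 0.438 times relative to U2 (0.159 to 1.21) and 0.428 relative to U1 (0.149 to 1.23). Relative to U4 it was lower, at 0.0729 times (0.0247 to 0.215).

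Counted against another RNA in the same library, SCR1 was 3.91 times higher relative to U2 with Sni445-HTP than in the control in cDNAs (3.23 to 4.72) and 3.82 times relative to U1 (2.67 to 5.46). Relative to U4 it was lower, at 0.651 times (0.427 to 0.992). Relative to the 18S rRNA, counted over both annotated copies, it was 0.883 times (0.797 to 0.978). NME1 and RPR1 were each 2.37 times higher relative to the 18S rRNA (1.53 to 3.68 for NME1 and 1.60 to 3.52 for RPR1). Relative to all tRNAs, the products of RNase P, RPR1 was 4.70 times higher with Sni445-HTP (3.17 to 6.97), and NME1, the RNA of the other enzyme, had the same value of 4.70 (3.03 to 7.30). SCR1 was 1.75 times higher relative to tRNAs (1.57 to 1.94). In reads the values for SCR1 were 2.46 relative to U2 (2.23 to 2.71), 2.54 relative to U1 (2.11 to 3.07), 0.270 relative to U4 (0.227 to 0.322), 0.606 relative to the 18S rRNA (0.576 to 0.637) and 1.08 relative to tRNAs (1.02 to 1.13). With Sni445-HTP, SCR1 was thus higher relative to U1, U2 and tRNAs and lower relative to U4 and the 18S rRNA in both units. Relative to tRNAs, the value in reads was 7.17 for RPR1 (6.06 to 8.47) and 8.79 for NME1 (7.52 to 10.3).

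ITS1, the spacer that RNase MRP cleaves, is counted in the pre-rRNA of both annotated repeats. ITS1-1 had 1893 cDNAs with Sni445-HTP against 1147 in the control, a ratio of 4.11 (3.82 to 4.43), and ITS1-2 had 1834 with Sni445-HTP against 1198 in the control, a ratio of 3.82 (3.55 to 4.11). In reads the ratios were 0.171 for ITS1-1 and 0.165 for ITS1-2, beside 0.153 for NME1. Relative to ITS1, NME1 was 0.911 times in reads (0.779 to 1.06) and 0.629 times in cDNAs (0.405 to 0.978). RPR1 was 0.743 times in reads (0.628 to 0.878) and had the same 0.629 in cDNAs (0.424 to 0.934). ITS1 reads of the repeats match both, and were placed at random between them.

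Against the families, NME1 lay within the range of the other snoRNAs. Over 70 other snoRNAs with at least 10 cDNAs in the libraries together, without snR4 and snR45, the median ratio in cDNAs was 3.23, where those without a control cDNA were placed at the floor, and 33 of them were below NME1. The lowest of them was 0.164, above the 0.104 of TLC1. The median was 0.598 over 267 tRNAs, of which 240 were below NME1 and RPR1, 179 below SCR1 and 3 below TLC1. Over 24 rRNA features it was 0.719, with 22 below NME1 and RPR1, 18 below SCR1 and 0 below TLC1. In reads, the median of the 73 other snoRNAs was 0.107, with the 24 that had no control read placed at the floor. Of the 73, 42 were below NME1, 38 below RPR1, 11 below SCR1 and 2 below TLC1. The snoRNA next to NME1 in the genome, SNR66, had 42 cDNAs with Sni445-HTP against 45 in the control, a ratio of 2.33 (1.49 to 3.62), and NME1 had 2.49. In reads SNR66 had a lower ratio than NME1, 0.0884 (0.0749 to 0.104) beside 0.153 (0.13 to 0.179). SNR161, next to TLC1, had 21 with Sni445-HTP against 33 in the control, a ratio of 1.59 (0.872 to 2.83); the interval of TLC1, up to 0.275, lies below it. In reads its ratio was 0.0199 (0.0152 to 0.0256), also above that of TLC1.

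**Figure D4:**
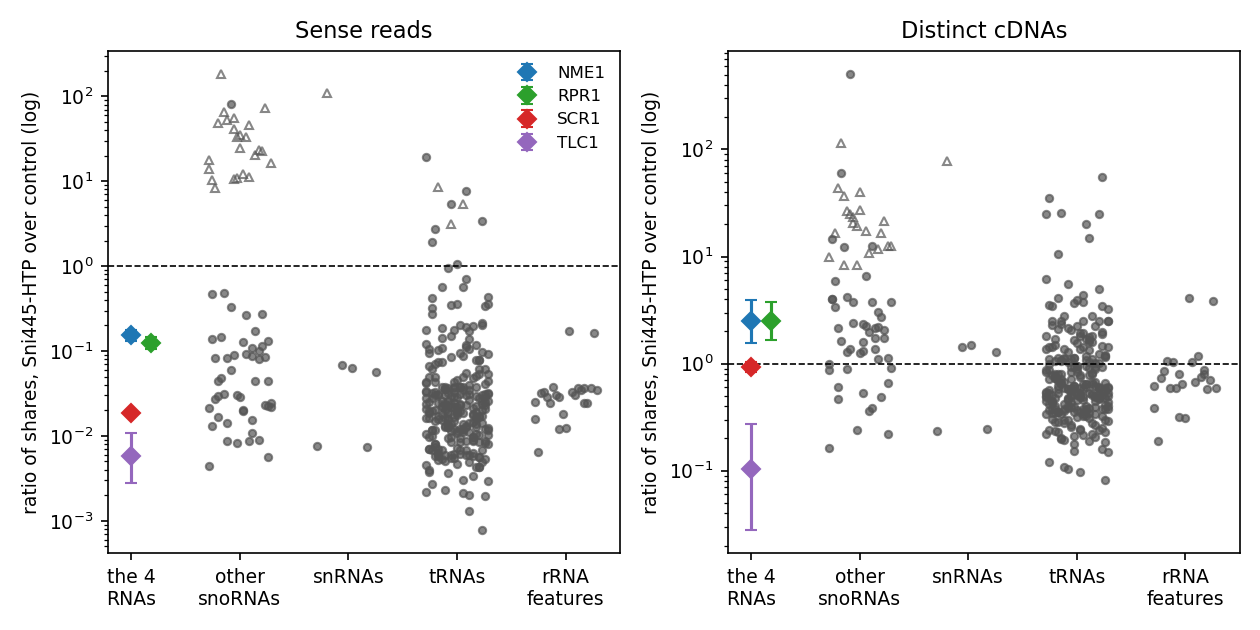
Ratio of shares, Sni445-HTP over untagged control, on a log scale for NME1, RPR1, SCR1 and TLC1 (diamonds with exact conditional 95% intervals) and for each feature of other families with at least 10 counts in the libraries together, in reads (left) and cDNAs (right); open triangles had 0 control counts and rest on a floor of 3. In cDNAs NME1 and RPR1 sit at 2.49 and TLC1, at 0.104, lies below every snoRNA, snRNA and rRNA feature shown.

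In the order of all features by sense reads, SCR1 ranked 31 of 3167 features with reads in the Sni445-HTP library and 26 of 1419 in the control. NME1 ranked 123 with Sni445-HTP against 624 in the control, RPR1 134 with Sni445-HTP against 619 in the control, and TLC1 1024 with Sni445-HTP against 554 in the control. The feature nearest in read number to SCR1 was the snoRNA SNR86 with Sni445-HTP, with 1646 reads, and the spacer ETS1-1 in the control, with 82901. NME1 was nearest to SNR85 with Sni445-HTP, with 187 reads, and to INT_0_9 in the control, with 1041. RPR1 was nearest to CUT628 with Sni445-HTP, with 158 reads, and to YDR524C-B in the control, with 1090. TLC1 had as many reads as 96 other features with Sni445-HTP, and was nearest to tD(GUC)L1 in the control, with 1453.

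Few mRNAs of the proteins in these particles had a read, as was the case for most mRNAs. Of 22 genes for subunits of RNase P and RNase MRP, SRP with its receptor, and telomerase, 3 had a sense read with Sni445-HTP (13.6%) against 1 in the control (4.55%). Of the 6021 protein-coding genes of R64, matched by symbol or systematic name, 1725 had one with Sni445-HTP (28.6%) against 501 in the control (8.32%), so these few counts do not set the subunit genes apart. SRP68, an SRP subunit, had 7 reads of 1 cDNA with Sni445-HTP against 0 in the control. A gene for a subunit of the SRP receptor had 1 read with Sni445-HTP and none in the control, and EST3, for a telomerase subunit, had 2 with Sni445-HTP and none in the control. POP1, for the largest protein of RNase P and RNase MRP, had 0 with Sni445-HTP against 1 in the control. These numbers are too small for a ratio. Antisense reads were seen on EST2, for the reverse transcriptase of telomerase, with 3 for Sni445-HTP and 0 for the control, and on POP6, for a subunit of RNase P and RNase MRP, with 394 for Sni445-HTP and 2450 for the control. The antisense count of POP6 was the sense count of the snoRNA SNR46 in both libraries.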

How the data were processed

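The CRAC libraries, 1 from the Sni445-HTP strain and 1 from the untagged control, were grouped by the sample labels. Per the methods, the authors separated the libraries by index with pyBarcodeFilter, checked reads with FastQC 0.12.1, aligned them to EF2.59 with Novoalign 3.09.00, each multiply matching read being given 1 site at random, and counted with pyReadCounters (Counters 1.4.4 by the file header). The deposited values are counts of sense and antisense reads and of distinct cDNAs per feature, without normalization, at read length limits of 30 and 1000. The rule by which reads were collapsed into cDNAs is not given in the sources used here, and cDNAs are not split by direction. The labels name a MiSeq and the methods a NextSeq2000.

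Shares, Clopper-Pearson intervals, ratios of shares with exact conditional binomial intervals, and ratios between RNAs with exact conditional odds-ratio intervals were computed in Python 3.11.15 with scipy 1.17.1. Intervals of ratios relative to snRNAs, rRNA, tRNAs and ITS1 were taken on the log scale from the counts. Where the control had no count, a floor of 3 counts stood in. TMM factors came from edgeR 4.0.16. The sums of the feature counts equalled the totals in the header in all files. The rule was also run on a simulated table of 5758 features, where it found 100% of the 200 changed 8-fold up or down and called 0 others. Those counts were drawn from the control profile, without PCR copies and without the shift of counts to snR4 and snR45. The simulation therefore checks the code and does not show how often the rule errs in these libraries. The 4 RNAs, the lists of snRNAs and subunit genes, and the rules were chosen with earlier results of these data known. The features named are those lists, snR4, snR45, ITS1 and the feature nearest in read number to each RNA; SNR66, SNR161 and SNR46 were named after their values were seen. Positions of reads within the RNAs were not analysed here.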

Additional observations from a re-analysis of the deposited data

How the results depend on the processing

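The read ratios of NME1 and RPR1, 0.153 and 0.125, changed direction with the unit and the denominator, and those of SCR1 and TLC1, 0.0187 and 0.00585, mostly changed in size. In the order NME1, RPR1, SCR1 and TLC1, the ratios were 0.104, 0.0848, 0.0127 and 0.00398 over mapped reads, 0.0475, 0.0387, 0.00581 and 0.00181 without rRNA features, and 0.132, 0.108, 0.0162 and 0.00506 with sense and antisense reads together. They were 5.09, 4.15, 0.623 and 0.195 without snR4, snR45, INT_0_2879 and INT_0_9029, 6.20, 5.06, 0.759 and 0.237 under median-ratio scaling, and 5.35, 4.37, 0.655 and 0.205 under TMM scaling. Median-ratio scaling multiplies every ratio by 40.6 and TMM scaling by 35.0. Within the limit of 30 they were 16.8, 16.0, 0.0128 and 1.04, where all but that of SCR1 rest on the floor. In cDNA counts they were 2.49, 2.49, 0.927 and 0.104.

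Other alternatives were chosen after seeing the data. In cDNA counts over features without antisense reads, the ratios were 2.58, 2.58, 0.960 and 0.108. In cDNA counts within the limit of 30, the ratio at the floor of 3 was 7.53 for NME1 (lower limit 5.51) and 8.78 for RPR1 (lower limit 6.53). For SCR1 it was 1.03 with an interval of 0.837 to 1.25, and TLC1 had too few for a value. The values of NME1, RPR1 and TLC1 within the limit of 30 change with the floor. With a floor of 1 the ratios were 50.5 for NME1, 48.0 for RPR1 and 3.12 for TLC1 in reads. In cDNAs they were then 22.6 for NME1 and 26.3 for RPR1. Among reads longer than 30 they were 0.117, 0.0865, 0.0265 and 0.00393. The cause of these changes was not tested. In every setting but the limit of 30, the ratios of NME1 and RPR1 were the highest and that of TLC1 the lowest.

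The count of features called lower, 895, was 481 under the limit of 30, 533 in cDNA counts, 359 under median-ratio scaling and 383 under TMM scaling. The count called higher, 38, was 284 with a minimum of 10 reads, 6 with 1000 reads, 212 in cDNA counts, 61 under median-ratio scaling and 58 under TMM scaling. A floor of 1 count changes none of the ratios under the limit of 1000, where no RNA of the 4 had 0 reads. No paired analysis was possible because each strain has 1 library. TLC1, with 10 reads and 4 cDNAs, is the value that depth limits most.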
